A study of Mus musculus with 16 samples.

Results

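The numbered zinc finger protein genes of the mouse, whose symbols are Zfp followed by a number, were followed in embryonic fibroblasts given the deacetylase inhibitor trichostatin A (TSA), the iron chelator dipyridyl (DP), or both. Genes are members by symbol alone, leaving out Zfp36 and Zfp395, but the family was picked with earlier results of these data known. Of 303 such genes with a probe set on the array, 233 passed a filter on low signal and were tested among 11481 genes in all. The filter asked for a signal of at least 200 on at least 2 of 16 arrays, and among a gene's passing probe sets the brightest on average was used.

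Most of these genes encode DNA-binding proteins built from repeated fingers, each a short loop of the chain held by a zinc ion. Many also carry a KRAB domain, which recruits the corepressor Trim28 and with it histone deacetylases and a histone methyltransferase, and such proteins are best known for silencing retroviral and other repeated DNA. Others act as activators, as partners of chromatin complexes, or bind RNA. Members of the KRAB class lie side by side in clusters and resemble each other in sequence.

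The cells were primary fibroblasts from E14.5 embryos, given Cre recombinase by adenovirus at passage 3 and then expanded at least 100-fold. The triCH1 lines were triCH1flox1 (CBP CH1/flox;p300 CH1/CH1) and triCH1flox2 (CBP CH1/CH1;p300 CH1/flox), in which 3 of 4 alleles of the coactivators CBP and p300 lack the CH1 domain and the fourth is conditional. The control lines were flox1 (CBP+/flox) and flox2 (p300 +/flox). Every line, controls included, thus carried a conditional allele of CBP or p300 and received Cre. Each line was given TSA (100 ng/ml) then ethanol, TSA then DP (100 µM), ethanol then DP, or ethanol vehicle at both times, with 30 min between the additions and harvest 3 h after the later one. There was 1 array for each of the 4 lines under each of the 4 treatments, and no line had a replicate culture. Treatment changes were therefore measured within lines, and their n is 4 lines.

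The arrays had median signals of 103 to 153.8, and 36.8% to 42.6% of probe sets reached 200. The vehicle array of flox1 stood apart, with a 3' to 5' signal ratio of 2.59 for Gapdh, where all others had 0.907 to 1.26. For actin its ratio was 2.07, where all others had 1.29 to 1.63. Array barcodes fell into 2 number series, of which the first held 4 arrays (TSA, DP and TSA with DP of triCH1flox1, and TSA with DP of flox2) and no vehicle array. All 8 fibroblast markers examined, among them Vim and Col1a1, had mean signals of at least 200. The signals of 4 neural markers summed to 1430 to 1890 with TSA and 441 to 1540 with vehicle, and those of 4 skeletal muscle markers to 6710 to 10400 and 5020 to 7820. In each of these lists 2 of 4 markers had mean signals of at least 200. The highest were Nes (870) and Acta1 (6870), while Gfap (60.5) and Myog (26.1) were lowest. Of 5 epithelial markers 3 reached 200, with sums of 1120 to 1530 with TSA and 914 to 2180 with vehicle. Of 5 macrophage markers 1 did, with sums of 621 to 863 and 530 to 680. No endothelial or erythroid marker reached it. Whether differences in such markers had a part in the changes of Zfp genes was not tested. Xist, the RNA of the inactive X, ran from 1751 to 5389 in triCH1 lines and from 10.1 to 111 in control lines, so that class and the sex pattern of the lines cannot be told apart.

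The 70 genes that did not pass had mean signals of 16.6 to 134 (median 70.5). Of these, 19 reached 200 on 1 array (mean signals of 51.9 to 134), and just inside the filter 16 members reached it on 2 arrays (81.4 to 146). Signals of different probe sets are not levels of different transcripts, but they place most members near the lower end of the scale. The mean signal of the 233 members had a median of 285, against 663 for the other 11248 tested genes. Among members, 82 reached 200 on all 16 arrays. The filter let in 18 members only through arrays without TSA and 2 only through arrays with TSA, and these members had to differ in some measure. They include 4 of the genes called lower with TSA below, 7 of those called lower with TSA in the presence of DP, and none of those called higher.

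TSA lowered more Zfp genes than it raised. In the comparison of TSA with vehicle over the 4 lines, 44 of 233 members fell and 15 rose (limma, Benjamini-Hochberg adjusted p under 0.05 over all 11481 genes). Over all tested genes the balance lay the other way, with 12.5% called lower and 15.8% called higher, against 18.9% and 6.44% of members. The median change of the members was -0.17 on the log2 scale, and that of all other genes 0.029. As bulk RNA was measured, fewer cells that express a gene and less RNA per cell cannot be told apart. Without triCH1flox1, 26 members were called lower and 8 higher, which is 11.2% and 3.43% of members, against 8.33% and 11.0% of all genes. Without the flox1 vehicle array 41 fell and 9 rose, or 17.6% and 3.86%, against 10.7% and 13.7% of all genes. Without triCH1flox2 34 fell and 6 rose, or 14.6% and 2.58%, against 8.16% and 9.88% of all genes. On the second barcode series alone, which leaves out triCH1flox1, 9.87% of members were lower and 2.58% higher, against 6.41% and 8.08% of all genes.

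The direction was alike in each line. The median change of the members was -0.19 in triCH1flox1, -0.20 in triCH1flox2, -0.11 in flox1 and -0.25 in flox2, while the medians of all other genes lay between 0.011 and 0.042. The members' median minus that of the other genes averaged -0.22 ± 0.071 (SD, n = 4 lines). Taken gene by gene, 67 members were lower in 4 of 4 lines and 25 were higher in 4 of 4, which is 28.8% and 10.7% of members, against 18.6% and 22.5% of all tested genes.

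**Figure D1:**
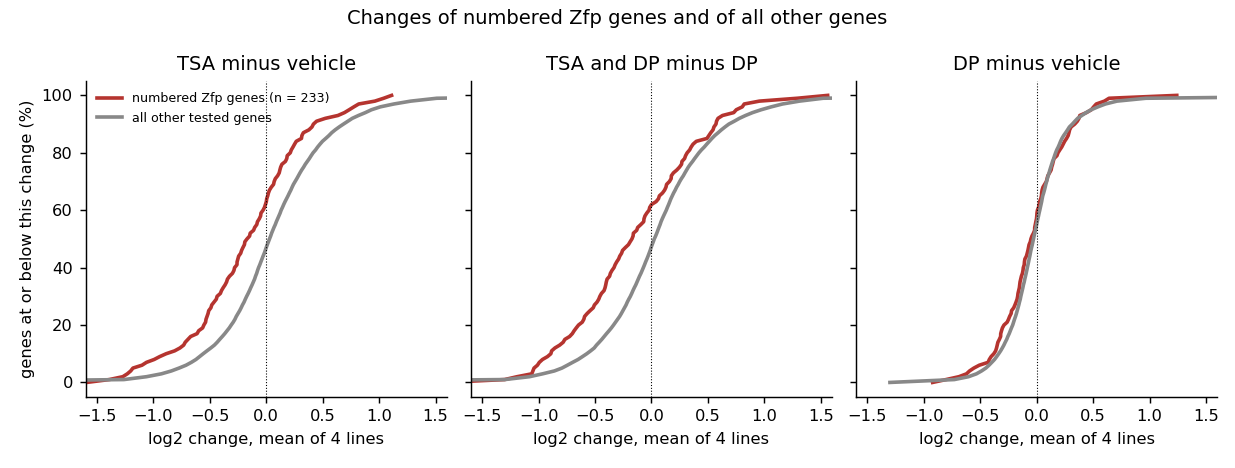
Cumulative share of genes (vertical axis, percent) at or below each log2 change (horizontal axis, mean of 4 lines) for the 233 numbered Zfp genes (red) and all 11248 other tested genes (grey). The red curve lies to the left of the grey one in both TSA comparisons, with medians of -0.17 against 0.029 and -0.17 against 0.025, and close to it in the comparison of DP with vehicle, with medians of -0.052 against -0.029.

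The 6 largest falls with TSA among called members that fell in every line were those of Zfp469, Zfp618, Zfp74, Zfp335, Zfp513 and Zfp644. Signals are given in the order triCH1flox1, triCH1flox2, flox1, flox2. Zfp469, whose human counterpart is the gene of a brittle cornea syndrome, had 588, 607, 766 and 563 with TSA, against 1982, 1427, 2576 and 2107 with vehicle. Its highest TSA array was thus well below its lowest vehicle array, and the change was -1.59 ± 0.13 (log2, SE, n = 4), a 3.00-fold lower level (limma adjusted p = 3.58e-07). Zfp618, whose human counterpart binds the methylation reader UHRF2, had 197, 117, 238 and 104 with TSA, against 520, 425, 552 and 546 with vehicle. No TSA array reached a vehicle array, and the change was -1.43 ± 0.23 (limma adjusted p = 0.000174). The same held of Zfp74, a member of a cluster on chromosome 7, with 124, 160, 199 and 82.5 with TSA, against 524, 448, 333 and 473 with vehicle. It fell by 1.39 on the log2 scale (SE 0.23, limma adjusted p = 0.000247).

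Zfp335 encodes a protein that works with histone methyltransferase complexes and is needed for brain and T-cell development. Its signals were 226, 236, 115 and 246 with TSA, against 555, 519, 832 and 533 with vehicle, without overlap. Flox1 was both the lowest with TSA and the highest with vehicle, and the mean change was -1.38 ± 0.23 (limma adjusted p = 0.000229). Zfp513, whose human counterpart is tied to retinal development, had 62.3, 192, 25.8 and 144 with TSA, against 369, 253, 219 and 398 with vehicle. Its lowest TSA signals are near the floor of the arrays, so its change of -1.31 ± 0.31 (limma adjusted p = 0.00424) is on the scale of log2(signal + 50), which understates changes of weak signals. The call of Zfp513 was lost without triCH1flox1 (limma adjusted p = 0.102). Zfp644, a partner of the histone methyltransferase G9a, had 654, 858, 718 and 875 with TSA, against 1629, 2312, 1560 and 2223 with vehicle. It was lower by 2.38-fold (-1.25 ± 0.15 log2, limma adjusted p = 1.19e-05), and its TSA and vehicle arrays did not overlap. Its probe set carries the array's suffix for shared sequence, so other transcripts may add to the signal. On its other passing probe sets the change was -1.26, -0.83 and -0.64, of which the last was not called (limma adjusted p = 0.186).

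The next 4 falls were those of Zfp236, Zfp651, Zfp110 and Zfp324, with log2 changes of -1.24, -1.23, -1.23 and -1.21. Zfp110 encodes a protein that binds the low-affinity neurotrophin receptor, and it returns below because DP lowered it too. The call of Zfp324 was lost without the flox1 vehicle array (limma adjusted p = 0.0577), without flox1 (0.0893) and without triCH1flox1 (0.122).

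The 6 largest rises with TSA among called members that rose in every line were those of Zfp654, Zfp667, Zfp516, Zfp867, Zfp277 and Zfp346. Zfp654 had 307, 424, 332 and 277 with TSA, against 109, 229, 55.4 and 158 with vehicle, and rose by 2.16-fold (1.11 ± 0.23 log2, limma adjusted p = 0.00169). Zfp667, found by others as a gene raised by ischaemic preconditioning of the heart, had 679, 597, 545 and 708 with TSA, against 278, 180, 417 and 249 with vehicle. It rose by 1.08 ± 0.23 (limma adjusted p = 0.00175). Zfp516 encodes an activator of the Ucp1 promoter in brown fat that also binds corepressors. It had 768, 981, 719 and 832 with TSA, against 356, 354, 545 and 355 with vehicle, a rise of 0.96 ± 0.15 (limma adjusted p = 0.000173). The Zfp654 probe set carries the array's suffix for shared sequence and that of Zfp516 the suffix for mixed probes, so other transcripts may add to their signals. In each of these 3 genes the TSA arrays all lay above the vehicle arrays.

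Zfp867 had 224, 231, 224 and 151 with TSA, against 133, 149, 62.3 and 21.7 with vehicle, so that its lowest TSA array (flox2) was barely above its highest vehicle array (triCH1flox2). Its rise of 0.96 ± 0.29 (limma adjusted p = 0.0215) lost its call when any 1 of the 4 lines was left out. Zfp277, which binds a Polycomb complex in mouse fibroblasts, had 1530, 1260, 1605 and 1062 with TSA, against 808, 903, 509 and 823 with vehicle. The change was 0.81 ± 0.17 (limma adjusted p = 0.00139). Zfp346 encodes a protein that binds double-stranded RNA. It had 1007, 736, 829 and 1260 with TSA, against 489, 419, 623 and 605 with vehicle, a change of 0.78 ± 0.16 (limma adjusted p = 0.00145). The remaining named rises were smaller, at 0.76 for Zfp763, 0.61 for Zfp365, 0.49 for Zfp251 and 0.48 for Zfp267. Zfp707 (0.96) and Zfp101 (0.78) were also called higher with TSA, but did not rise in every line. Of 17 alternatives, the call of Zfp365 was lost under 11, with changes of 0.28 to 0.94, that of Zfp251 under 7 and that of Zfp267 under 6. Of the 20 changes with TSA named here, 10 kept their call under every alternative run (Zfp469, Zfp618, Zfp74, Zfp335, Zfp644, Zfp236, Zfp110, Zfp667, Zfp516 and Zfp346).

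**Figure D2:**
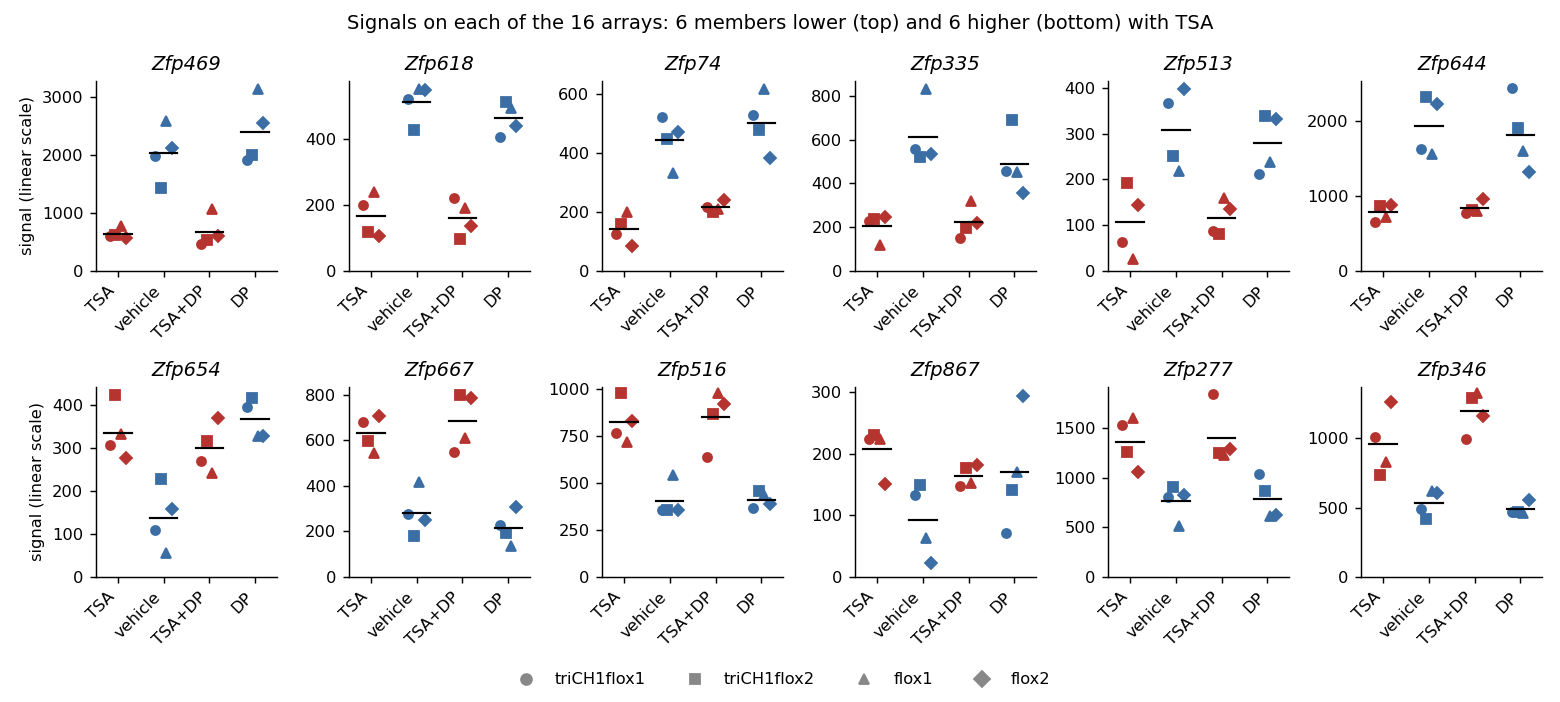
Signal on a linear scale (vertical axis) of the 6 members with the largest falls (top row) and the 6 with the largest rises (bottom row) with TSA, on each of the 16 arrays, by treatment (horizontal axis). Both rows are taken from called members that changed the same way in every line. Symbols are lines, red marks arrays with TSA and blue arrays without, and bars are means of 4 lines. In each panel the TSA arrays and the vehicle arrays do not overlap, while for Zfp654 and Zfp867 the TSA with DP arrays overlap the DP arrays.

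The promoters of 5 genes are printed because they show how unlike the start regions of genes that moved together, or apart, can be. They are 3 falls and 2 rises from among the largest mean changes over both TSA comparisons, in members called in both. Each is 300 bases from RefSeq on GRCm38.p6, from 250 before to 50 after a gene's start, on the gene's own strand. Capitals mark 9 short motifs searched on both strands: the GC box GGGCGG, the CCAAT box, the ETS motif CCGGAAG, the cyclic AMP element TGACGTCA, the ZNF-type core ACTACAA, the NRF core GCGCATG, the YY motif ATGGCGG, the TATA box TATAAA, and the hypoxia element core ACGTG. Matches that overlap are all counted and merge in the capitals.
Zfp618 (lower, chr4:62965317-62965616, + strand): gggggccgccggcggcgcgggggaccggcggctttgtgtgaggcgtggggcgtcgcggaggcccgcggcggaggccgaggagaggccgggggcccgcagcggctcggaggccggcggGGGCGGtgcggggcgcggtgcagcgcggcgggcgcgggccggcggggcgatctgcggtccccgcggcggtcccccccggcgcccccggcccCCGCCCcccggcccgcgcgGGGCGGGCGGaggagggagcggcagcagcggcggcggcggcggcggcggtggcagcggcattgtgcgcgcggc
Zfp74 (lower, chr7:29954016-29954315, - strand): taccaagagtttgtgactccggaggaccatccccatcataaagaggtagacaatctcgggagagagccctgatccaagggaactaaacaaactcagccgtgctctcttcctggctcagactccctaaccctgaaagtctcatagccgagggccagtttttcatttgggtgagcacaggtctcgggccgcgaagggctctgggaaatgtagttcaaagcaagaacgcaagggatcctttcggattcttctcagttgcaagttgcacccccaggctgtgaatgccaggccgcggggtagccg
Zfp335 (lower, chr2:164911701-164912000, - strand): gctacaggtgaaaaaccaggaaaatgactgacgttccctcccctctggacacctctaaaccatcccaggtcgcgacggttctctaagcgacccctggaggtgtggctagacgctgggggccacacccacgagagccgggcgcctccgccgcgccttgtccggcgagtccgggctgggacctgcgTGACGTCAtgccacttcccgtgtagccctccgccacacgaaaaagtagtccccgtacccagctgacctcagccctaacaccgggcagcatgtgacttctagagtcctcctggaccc
Zfp667 (higher, chr7:6286330-6286629, + strand): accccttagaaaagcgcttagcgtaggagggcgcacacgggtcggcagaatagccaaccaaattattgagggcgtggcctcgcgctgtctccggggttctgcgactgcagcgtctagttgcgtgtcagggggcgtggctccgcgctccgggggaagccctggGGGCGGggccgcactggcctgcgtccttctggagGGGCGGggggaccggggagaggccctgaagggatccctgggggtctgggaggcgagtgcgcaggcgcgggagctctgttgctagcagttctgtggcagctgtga
Zfp346 (higher, chr13:55105072-55105371, + strand): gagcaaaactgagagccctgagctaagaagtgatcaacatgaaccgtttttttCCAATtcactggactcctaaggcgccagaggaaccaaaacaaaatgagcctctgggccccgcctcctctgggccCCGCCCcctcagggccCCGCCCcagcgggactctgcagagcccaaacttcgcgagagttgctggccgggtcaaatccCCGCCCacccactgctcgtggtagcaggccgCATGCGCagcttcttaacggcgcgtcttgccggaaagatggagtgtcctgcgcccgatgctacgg
Zfp618 has 59 CG pairs and 4 GC boxes, of which 2 overlap, and its bases are 88.0% G or C. Zfp74 has 12 CG pairs and none of the 9 motifs, and Zfp335 has 22 CG pairs and a cyclic AMP element as its only match. The genes that rose have 2 (Zfp667) and 3 (Zfp346) GC boxes, and Zfp346 also has CCAAT and GCGCATG.

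Over all members, 192 had a promoter in the RefSeq table. The GC box was found in 72.7% of the 22 promoters of members that rose in either TSA comparison, in 38.2% of the 55 of members that fell, and in 53.9% of the 115 of members called in neither. Of all 17492 protein-coding promoters, 46.3% hold it. The median number of CG pairs was 14 in members that rose, 16 in members that fell, and 13 in all promoters. The median share of G and C was 57.7% in members that rose, 55.7% in members that fell and 56.3% in all promoters. As a class, members held ATGGCGG in 12.0% of promoters against 5.41% of all, CCGGAAG in 18.2% against 11.9%, and ACTACAA in 7.81% against 3.84%. TATAAA was rarer, at 7.29% against 13.3%. The members had passed the low-signal filter, whereas the 17492 promoters were taken without regard to signal, so the sets differ in more than family. These shares are a description of letters and were not tested.

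The effect of TSA was measured again on other arrays of the same lines, by setting TSA with DP against DP alone. Here 53 members fell and 21 rose, or 22.7% and 9.01%, against 12.2% and 17.7% of all tested genes (limma, adjusted p under 0.05). The median change was -0.17 for members and 0.025 for all other genes. Members' medians were -0.19 in triCH1flox1 and triCH1flox2, -0.15 in flox1 and -0.17 in flox2, and the members' median minus that of other genes averaged -0.21 ± 0.013 (SD, n = 4 lines). In 4 of 4 lines 81 members were lower and 35 higher, or 34.8% and 15%, against 20.7% and 26.7% of all genes. With each array centred on its median, the counts were 63 lower and 11 higher, against 15.9% and 14.0% of all genes. Without flox2 16.7% of members were lower and 3% higher, against 9.21% and 12.2% of all genes. Without triCH1flox2 the shares were 13.3% and 4.29%, against 8% and 11.8% of all genes, and without triCH1flox1 15.9% and 3.43%, against 8.21% and 11.3%. On the second barcode series alone, which leaves 2 lines, 19 fell and 4 rose, or 8.15% and 1.72% of members, against 5.15% and 6.11% of all genes.

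The 3 largest falls in the presence of DP were those of Zfp469, Zfp407 and Zfp618. Zfp469 had 463, 531, 1056 and 588 with TSA and DP, against 1912, 1987, 3133 and 2552 with DP, a change of -1.83 ± 0.13 (limma adjusted p = 8.03e-08). Zfp407, which takes part in glucose uptake of fat cells, had 175, 117, 121 and 72.5, against 403, 462, 518 and 431 with DP. It was 3.00-fold lower (-1.58 ± 0.22, limma adjusted p = 4.52e-05), and no array with TSA and DP reached a DP array. Zfp618 had 221, 96.0, 190 and 135 with TSA and DP, against 405, 511, 494 and 437 with DP, and fell by 1.32 on the log2 scale (SE 0.23, limma adjusted p = 0.000333). After these came Zfp236 (-1.25), Zfp710 (-1.24), Zfp532 (-1.16), Zfp362 (-1.15), Zfp449 (-1.06), Zfp644 (-1.05) and Zfp868 (-1.05).

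Among the rises, Zfp566 had 268, 243, 362 and 272 with TSA and DP, against 114, 105, 29.2 and 31.6 with DP. It rose by 1.56 ± 0.26 (limma adjusted p = 0.00027), and its control lines were lowest with DP. Zfp667 had 548, 800, 611 and 784, against 227, 194, 137 and 306 with DP, and rose by 2.81-fold (1.49 ± 0.23, limma adjusted p = 0.000109). Zfp661 had 264, 192, 227 and 321 with TSA and DP, against 87.0, 106, 80.4 and 20.1 with DP. Its rise of 1.33 ± 0.38 (limma adjusted p = 0.013) was not called in the comparison of TSA with vehicle, where the change was 0.41 ± 0.38 (limma adjusted p = 0.455). The other named rises ran from 1.2 for Zfp346 and 0.96 for Zfp516 over Zfp251 (0.81), Zfp277 (0.81), Zfp54 (0.74) and Zfp961 (0.65) to 0.63 for Zfp101. Of the 20 changes named for this comparison 12 kept their call under every alternative, and those of Zfp54, Zfp961 and Zfp101 were among the 8 that did not.

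The calls of the comparisons overlapped. Lower in both were 33 members, which is 75% of the 44 lower with TSA and 62.3% of the 53 lower with TSA in the presence of DP. Over all tested genes the same shares were 67% and 68.5%. Higher in both were 9 members, or 60.0% of 15 and 42.9% of 21, against 76.3% and 67.7% over all tested genes. Called in opposite directions were 0 members, and no such count is given for all tested genes. Across the 233 members the changes of the comparisons had a Pearson correlation of 0.77, as they had across all other genes, from arrays that are separate but come from the same 4 lines. The difference between both TSA effects was called for 0.392% of all genes and 0 members (limma), of which 11 (4.72%, against 5.92% of all genes) had an unadjusted p under 0.05.

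**Figure D3:**
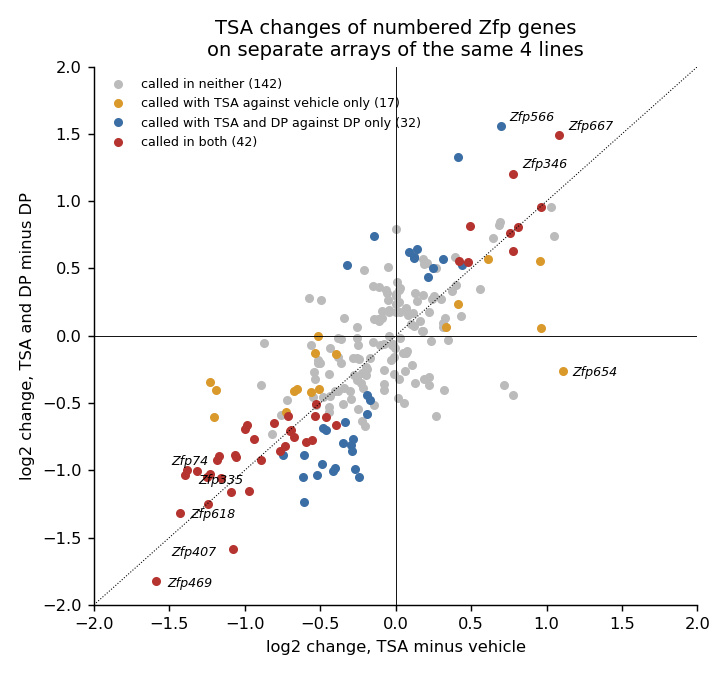
Log2 change of each of the 233 members with TSA against vehicle (horizontal axis) and with TSA and DP against DP (vertical axis), both as means of 4 lines, coloured by call. The dotted line marks equal changes. The 42 members called in both (red) lie at the lower left or the upper right, and Zfp654 lies at the far right, near 0 on the vertical axis.

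By known role, the chromatin and corepressor partners had more falls than rises. There were 13 listed genes, of which 12 are members and Zfp518a has a symbol outside the rule. With TSA 6 fell and 1 rose, or 46.2% and 7.69%, against 12.5% and 15.8% of all tested genes. In the presence of DP 5 fell and 1 rose with TSA, or 38.5% and 7.69%, against 12.2% and 17.7%. Median changes were -0.47 and -0.46, against 0.026 and 0.023 over all genes. The largest fall was that of Zfp518a, the listed gene outside the rule (-1.44 ± 0.32, limma adjusted p = 0.00258), which was not called with DP present (limma adjusted p = 0.0511). Zfp827 fell like Zfp644 and Zfp335, and its human counterpart recruits a deacetylase complex to telomeres. Zfp827 averaged 361 ± 78.0 with TSA and 877 ± 198 with vehicle (SD, n = 4), a change of -1.17 ± 0.18 (limma adjusted p = 0.000161). The gene that rose was Zfp516. Zfp532, which belongs with Zfp592 and Zfp687 to a complex bound to chromatin readers, fell in both TSA comparisons (-1.09 and -1.16). Zfp592 (-0.48 and -0.46) and Zfp687 (0.43 and 0.14) were called in neither.

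Of 7 tested developmental regulators, 3 fell and 0 rose with TSA (limma), or 42.9% and 0%, against 12.5% and 15.8% of all tested genes. Zfp503, which acts in limb and forebrain patterning, averaged 847 ± 274 with TSA and 1927 ± 252 with vehicle (SD, n = 4), and changed by -1.18 ± 0.16 (limma adjusted p = 4.39e-05). Zfp521, a regulator of fat and blood cell fate, changed by -0.80 ± 0.16 (limma adjusted p = 0.00103), and the last of the 3 was Zfp110. Zfp568, a KRAB protein that silences a placental promoter of Igf2, had -0.34 ± 0.16 with TSA (limma adjusted p = 0.139) and fell by 0.64 in the presence of DP (limma adjusted p = 0.00643). With DP present, 4 of the 7 fell and 0 rose, or 57.1% and 0%, against 12.2% and 17.7% of all tested genes.

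Of 5 tested KRAB proteins with known silencing targets, 2 fell and 0 rose with TSA. These are 40% and 0%, against 12.5% and 15.8% of all tested genes. With TSA in the presence of DP 3 fell and 1 rose, or 60% and 20%, against 12.2% and 17.7%. Zfp809, which silences murine leukaemia virus through its primer binding site, averaged 446 ± 89.4 with TSA and 1001 ± 280 with vehicle (SD, n = 4). Its change was -1.07 ± 0.18 (limma adjusted p = 0.000265), and with DP present it fell by 0.89. Zfp445, a keeper of imprints, changed by -0.39 ± 0.14 (lower in 3 of 4 lines, limma adjusted p = 0.0448) and -0.67 ± 0.14 (limma adjusted p = 0.00169) in the same order. Zfp57, the other imprint keeper, had weak signals of 127 ± 75 with TSA and 191 ± 23.7 with vehicle and was not called (-0.54 ± 0.38, limma adjusted p = 0.315). The gene that rose in the presence of DP was Zfp932 (0.59 ± 0.19, limma adjusted p = 0.025), named after its value was seen.

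Of 9 members that bind RNA, ribosomes or spindles, 1 fell and 2 rose with TSA. These shares of 11.1% and 22.2% were near those of all tested genes, 12.5% and 15.8%. With DP present 1 fell and 1 rose, or 11.1% each, against 12.2% and 17.7%. Zfp346 and Zfp106, an RNA-binding protein of muscle and nerve, rose by 0.78 and 0.41. Zfp638, which silences unintegrated retroviral DNA, fell by 0.53 on the log2 scale (SE 0.16, limma adjusted p = 0.0169). Of the 2 tested promoter activators, Zfp384, a factor of matrix genes in bone, averaged 638 ± 112 with TSA and 1216 ± 140 with vehicle (SD, n = 4) and fell in both comparisons (-0.89 and -0.92). Zfp410 had 0.12 ± 0.19 with TSA and was not called (limma adjusted p = 0.688).

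The partners that KRAB proteins work through were called at about the rate of all genes with TSA. Of 18 tested genes of this machinery 3 fell and 3 rose, or 16.7% each, against 12.5% and 15.8% of all genes. With TSA in the presence of DP 4 fell and 4 rose, or 22.2% each, against 12.2% and 17.7% of all genes. Trim28, the corepressor that KRAB domains bind, averaged 5131 ± 398 with TSA and 6693 ± 829 with vehicle (SD, n = 4), a change of -0.38 ± 0.094 (limma adjusted p = 0.00657). Smarcad1, a remodeler that binds Trim28, fell by 0.95 on the log2 scale (limma adjusted p = 0.000238). Pphln1, a subunit of the HUSH silencing complex, rose by 0.52 and Chd4, the motor of the NuRD deacetylase complex, by 0.46.

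Genes with Zbtb symbols, most of which encode zinc finger proteins with a BTB domain, also had more falls than rises. Of 38 tested, which include the opposite-strand transcript Zbtb11os1, 14 fell and 3 rose with TSA, with a median change of -0.29. These are 36.8% and 7.89%, against 18.9% and 6.44% of members and 12.5% and 15.8% of all tested genes. In the presence of DP 9 fell and 2 rose, with a median of -0.33. These are 23.7% and 5.26%, against 22.7% and 9.01% of members and 12.2% and 17.7% of all tested genes. Of Zscan and Zkscan genes, which carry a SCAN domain, 15 were tested. With TSA 1 fell and 1 rose, or 6.67% each, with a median of 0.076. In the presence of DP 0 fell and 3 rose, or 0% and 20%, with a median of -0.023.

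**Figure D4:**
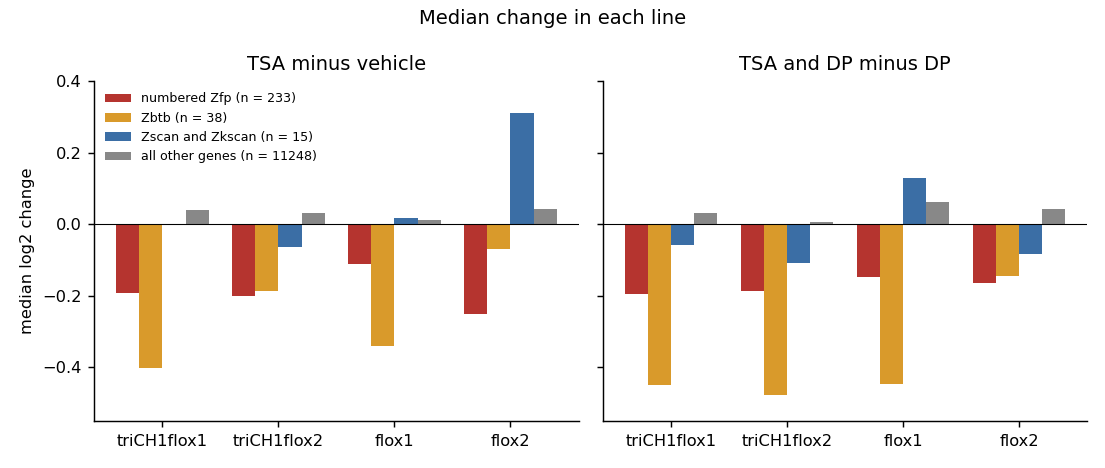
Median log2 change (vertical axis) in each line (horizontal axis) with TSA against vehicle (left) and with TSA and DP against DP (right), for the numbered Zfp genes, the Zbtb genes, the Zscan and Zkscan genes, and all other tested genes. The bars of the numbered Zfp genes and of the Zbtb genes are below 0 in each of 4 lines in both comparisons, and those of all other genes are above 0.

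Since members had weaker signals than other genes, they were also compared within 4 equal bins of all tested genes by mean log2 signal. In the lowest bin (mean signal up to 248), which held 101 members, 7.92% of members and 3.39% of other genes were lower with TSA, and 1.98% and 9.13% were higher. In the next bin, with 83 members, 19.3% of members were lower against 12.5% of other genes, and 8.43% higher against 16.8%. In the third, with 40 members, the shares were 40% against 16.5% lower and 10% against 22.7% higher. The highest bin held 9 members, of which 4 were lower and 2 higher. There members were more often called in both directions, with 44.4% lower against 16.8% of other genes and 22.2% higher against 15.1%. The medians of the members were below those of other genes in each bin, at -0.15, -0.14, -0.22 and -0.35 from lowest to highest signal, against 0.087, 0.045, 0.042 and -0.012.

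**Figure D5:**
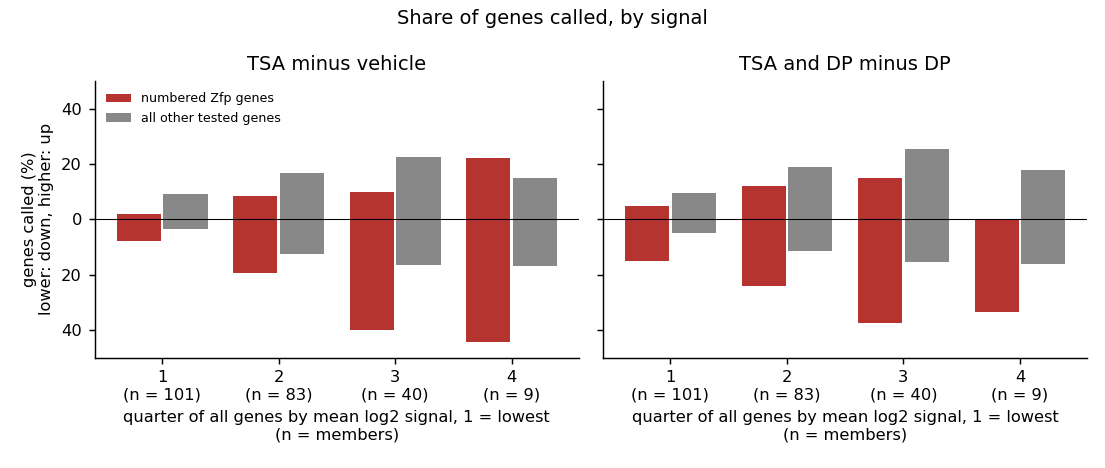
Share of genes called (percent, vertical axis, lower drawn downwards and higher upwards) in each of 4 equal bins of tested genes by mean log2 signal (horizontal axis), for numbered Zfp genes (red) and all other tested genes (grey), in both TSA comparisons. The red bars reach further down than the grey ones in every bin, and the highest bin rests on 9 members.

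The members are unevenly spread in the genome. All 233 were matched in RefSeq, 56 of them (24.0%) on chromosome 7, 33 on chromosome 17 and 19 on chromosome 8. In 11 runs of at least 4 members with starts under 500 kb apart lay 86 members. These had a median change of -0.22 with TSA, against -0.079 for the 147 members outside the runs, and -0.20 against -0.16 with TSA in the presence of DP. Of members in runs 15.1% fell and 3.49% rose with TSA, against 21.1% and 8.16% outside. In the presence of DP 17.4% fell and 9.3% rose in runs, against 25.9% and 8.84% outside. Members in runs also had weaker signals, with a median of 247 against 358.

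The longest run, from Zfp160 to Zfp945 (chr17:21008941-22867309), held 18 members, of which 13 had changes below 0 with TSA, 3 fell and 0 rose. Among all members 62.7% had changes below 0 with TSA, 18.9% fell and 6.44% rose. Among all tested genes these shares were 47.3%, 12.5% and 15.8%. Another run on the same chromosome was the only one with medians above 0, at 0.21 with TSA and 0.37 in the presence of DP. It held 9 members, from Zfp871 to Zfp414 (chr17:32765496-33631716). There 2 rose and 1 fell with TSA, and 2 rose and 0 fell with TSA in the presence of DP. The run from Zfp930 to Zfp866 (chr8:69209018-69774911) had 3 of 5 members lower in the presence of DP and 0 lower with TSA alone. In the presence of DP 22.7% of all members fell and 9.01% rose, against 12.2% and 17.7% of all tested genes. Runs were looked at after the calls were known.

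Neighbouring zinc finger genes can be similar in sequence, so probes may bind transcripts of more than 1 member. The sequences of neighbours in these runs were not compared. Of the 233 probe sets used, 10 carry the array's suffix for shared sequence (s) and 11 that for mixed probes (x), and 8 of the 59 calls with TSA rest on these. Further passing probe sets of the called genes mostly moved the same way. Of 36 others for genes lower with TSA, 32 had changes below 0, 16 were called lower and 0 called higher. For genes higher with TSA it was 7 of 7, with 2 called. For genes higher with TSA in the presence of DP only 3 of 7 had changes above 0, and the exceptions include Zfp516 (-0.039 on its other probe set, against 0.96).

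DP alone gave few calls among Zfp genes. With DP against vehicle, 1 member fell and 1 rose (0.429% each), against 0.27% of all tested genes lower and 1.44% higher. The median change of members was -0.052 and that of other genes -0.029, and 29 members (12.4%) had an unadjusted p under 0.05, 15 lower and 14 higher, against 12.6% of all genes. These values use the same vehicle arrays as the TSA comparison.

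The member that fell was Zfp110, with 472, 441, 450 and 451 with DP, against 684, 976, 853 and 886 with vehicle, and the groups did not overlap. Its change with DP was -0.83 ± 0.18 (limma adjusted p = 0.0231). The probe set used carries the array's suffix for mixed probes, so other transcripts may add to its signal. On the other passing probe sets of Zfp110 the change with DP was not called. It was -0.56 (limma adjusted p = 0.19) and -0.28 (limma adjusted p = 0.68). On the probe set used, Zfp110 had 444, 253, 281 and 379 with TSA, and 354, 306, 349 and 381 with TSA and DP, so all 3 treatments left it below vehicle. With DP already present, TSA changed it by -0.34 ± 0.18 (limma adjusted p = 0.173). The difference between its TSA changes with and without DP was 0.88 ± 0.26 and was not called (limma adjusted p = 0.317). Its call with DP was lost without the flox1 vehicle array (limma adjusted p = 0.108), and without any line but triCH1flox1 (limma adjusted p of 0.102 to 0.209).

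The member that rose was Zfp654, with 396, 418, 328 and 328 with DP, against 109, 229, 55.4 and 158 with vehicle. It rose by 2.36-fold (1.24 ± 0.23 log2, limma adjusted p = 0.00608), by 1.12 in triCH1 lines and 1.35 in control lines. With both agents it had 271, 318, 242 and 371, a range that overlaps those with either agent alone. Its TSA change with DP minus that without was -1.37 ± 0.33, with the smallest adjusted p of such a difference among members, and was not called (limma adjusted p = 0.119). All its comparisons with vehicle lean on the same 4 arrays, of which that of flox1 was lowest. The DP call of Zfp654 was lost when flox1, triCH1flox1 or triCH1flox2 was left out.

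When TSA was already present, DP changed 0 members (limma), against 0.00871% of all genes lower and 0.139% higher. Of the members, 10 (4.29%, against 5.35% of all genes) had an unadjusted p under 0.05, and the smallest adjusted p was 0.178. The median SE of a member's change was 0.23, and the median 95% interval reached 0.48 to either side.

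Between the CH1 classes, 0 members differed (limma on 4 line means, 2 against 2). Of all genes, 0.139% were lower and 0.0174% higher in triCH1 lines. Members' differences ran from -0.66 to 0.78 with a median of 0.012, and 17 (7.3%, against 10.6% of all genes) had an unadjusted p under 0.05. Without flox2, which leaves 1 control line, the differences of Zfp593 and Zfp991 were 0.98 and 1.31. With all lines they were 0.34 and 0.78 and were not called (limma adjusted p = 0.758 and 0.467). No difference in response between the classes was called for a member (limma): the TSA change differed for 0% of all genes and 0 members (10 members, or 4.29%, against 5.71% of all genes had an unadjusted p under 0.05), and the DP change for 0.0261% of all genes and 0 members (6 members, or 2.58%, against 4.87%). For these differences the median 95% interval of a member reached 0.96 to either side.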

How the data were processed

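RNA of 16 cultures was hybridised to 1 Affymetrix Mouse430_2 array each. Per the labels, the deposited signal intensity of each of 45101 probe sets came from the array maker's statistical algorithm, scaled by the authors to a 2% trimmed mean of 500. Symbols came from GEO's platform annotation, and 932 probe sets with several symbols and 9160 with none were not used. The low-signal filter and choice of probe set are given in the report. Changes of log2(signal + 50) were tested with limma 3.58.1 in R 4.3.3 (8 group means, line within class as a block, variance trend, 6 residual degrees of freedom), with Benjamini-Hochberg adjustment over 11481 genes and a threshold of 0.05. The CH1 classes were compared over 4 line means. Members and gene lists were chosen with earlier results of these data known. Named genes are the largest changes, in the same direction in 4 of 4 lines, among called members (up to 10 each way for each treatment comparison), and listed genes by role. The line block follows the labels: deviations of arrays of 1 line from group means correlated at 0.16 to 0.328 in control and 0.077 to 0.32 in triCH1 lines. Between lines of the same number in different classes they correlated at 0.00969 to 0.17, a range that overlaps both. Labels name no separate cultures beyond lines. The p-values of treatment changes therefore measure how unevenly the 2 lines of a class responded, pooled over classes and treatments. Those of the class comparison measure the spread of line means within classes. The number of arrays limits the precision. The code was tested on simulated data. Alternatives covered pseudocount, filter, probe set choice, centring, variance trend, array weights, barcode series, the block, the flox1 vehicle array, and each line. Finger counts and KRAB domains from protein sequences were not analysed here. Figures were drawn with matplotlib 3.10.9.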

Additional observations from a re-analysis of the deposited data

Results flagged for a closer look

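Zfp335 stood out among the 42 named changes examined because its TSA change in flox1 was -2.42 on the log2 scale, against -1.14 to -0.98 in the other 3 lines. The threshold used, Dixon's at 95%, is set so that chance passes about 1 in 20 random groups, or about 2.1 of 42. The named changes were chosen for going the same way in every line, and some share a gene. That rate need not hold for them, and whether 1 such gap is more than chance gives was not tested. The flox1 vehicle array, with its high 3' to 5' ratios, enters this value, and without that array the change was -1.22 (limma adjusted p = 0.00228). The part of RNA quality in the gap was not tested further.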

How the results depend on the processing

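Under 17 alternatives no named change reversed, and 22 of 42 kept their call under all that gave a value (a mean signal of at least 200 gave 36 values), none of those with DP. The second barcode series alone cost most, with 23 of 42 kept. It left 23 members lower and 6 higher with TSA, 19 and 4 with TSA in the presence of DP, and 0 and 0 with DP, from fewer arrays. Without the flox1 vehicle array 9 members were higher with TSA and 0 lower with DP. The single fall with DP was also lost (0 members) with no filter, with the mean of all passing probe sets and with no variance trend. Centring each array left 11 members higher with TSA in the presence of DP, beside 63 lower. Without the replicate block, 40 members were lower and 12 higher with TSA, or 17.2% and 5.15%, against 9.92% and 12.9% of all genes. In the presence of DP 46 and 19 were, or 19.7% and 8.15%, against 9.84% and 14.7%. The block does not apply to the class comparison, which uses line means. Leaving out each line in turn gave 26 to 38 members lower (11.2% to 16.3%) and 6 to 12 higher (2.58% to 5.15%) with TSA. Of all genes 8.16% to 9.25% and 9.88% to 12.1% were. In the presence of DP the counts were 31 to 39 (13.3% to 16.7%) and 7 to 16 (3% to 6.87%). Of all genes 8% to 9.21% and 11.3% to 13% were. With DP the counts were 0 to 1 and 0 to 2. Class calls are not given, as leaving out a line leaves 1 line in its class. The members' median minus that of other genes was -0.199 with TSA (-0.127 with no filter, -0.234 to -0.176 leaving out a line) and -0.0228 with DP (-0.045 to 0.0352). In the presence of DP it was -0.198, and alternatives chosen after seeing the data gave -0.232 and -0.137 with pseudocounts of 16 and 200, -0.118 with no filter, -0.216 with a mean signal of at least 200, -0.182 with the mean of probe sets, -0.25 with barcode series as a term, and -0.222 to -0.145 leaving out a line. The causes were not tested. Weak signals, near the filter of 200, limit what can be seen of many members.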
